A study of Mus musculus with 19 samples.

Results

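Wnt signalling at the site of an injury that leads to heterotopic ossification (HO), the formation of bone outside the skeleton, was examined through 10 secreted proteins of the pathway. These were the ligands Wnt2 and Wnt5a, the inhibitors Wif1, Sfrp1, Sfrp2, Sfrp4, Frzb, Dkk2 and Dkk3, and Rspo3, which strengthens Wnt signals. The genes were taken by symbol and made up 10 of the 27998 genes counted. All 10 had UMIs in these libraries.

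Wnt ligands are lipid-modified proteins that bind Frizzled receptors and, for the signal that runs through beta-catenin, the co-receptors Lrp5 and Lrp6. Secreted Frizzled-related proteins (Sfrp1, Sfrp2, Sfrp4 and Frzb) and Wif1 bind ligands outside the cell, Dkk2 acts on the co-receptors, and R-spondins such as Rspo3 keep Frizzled receptors at the cell surface. Fibroblasts of tendon, muscle and fascia are well known producers of these proteins, and Wnt signals take part in the formation of cartilage and bone.

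Cells came from the tenotomy site of mice given a dorsal scald burn over 30% of the body surface and a transection of the Achilles tendon (burn/tenotomy). Day 3 had 3 libraries, and days 0, 7 and 21 had 4 each. A further 4 libraries were of mice given p7N3, a peptide that activates CD47, at 10 mg per kg daily. By the labels it was given from 3 days before to 3 days after the injury. The labels name C57 and LysmCre/Tgfb1fx/fx mice for the series as a whole, the latter carrying a Cre recombinase expressed from a myeloid promoter and a floxed Tgfb1 gene, and assign neither to a library, so that each group may hold either. The study describes male mice, a day 0 taken without injury, and PBS as the control given in place of p7N3. The labels list the model for day 0 too and name no vehicle for day 7, so that the libraries of day 7 may not be the PBS group. The labels give day 7 as the harvest day of p7N3 replicates 1 to 3, and none for replicate 4. Replicate 4, which day 3 lacks, is described apart from the others in the labels.

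Between 3019467 and 39870492 UMIs were held by the kept cells of each library, and 39541 cells were kept in all. Levels are given per library as CPM, the UMIs of a gene scaled to the total UMIs of the cells summed. Stromal-like cells made up 13755 of them, with 1146 at day 0, 818 at day 3, 5729 at day 7, 1887 at day 21 and 4175 with p7N3. All 10 markers of the stroma were higher there than in monocyte/macrophage-like cells in the mean (Pdgfra 193 against 3.47 CPM). The clusters had been named by these same markers, so that this describes the label and does not test it. The stromal-like sums of day 0 were the shallowest, with 771032 to 2116504 UMIs per library, and 3 UMIs, the floor used here, stood for up to 3.89 CPM. The other groups held 4241908 to 25222869 UMIs per library. The most barcodes shared by a pair of libraries were 22, against 12.6 expected by chance.

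Stromal-like cells at day 3 stood apart. Of these cells 91.8% ± 5.36 (SD, n = 3) belonged to 1 sub-cluster led by the granulocyte genes Retnlg and S100a8, with a median of 34802 UMIs per cell at day 3 against 5173 at day 0. In this sub-cluster 5 markers of proliferating cells were also raised. The sum of the 10 stromal markers was 26129 to 33138 CPM at day 3, 48354 to 58063 at day 0 and 52452 to 82541 in the later groups. The summed level of 7 granulocyte markers in stromal-like cells lay between 1422 and 2411 CPM at day 3. It was at most 20.8 at day 0 and 29.6 at day 21, and lay between 112 and 214 at day 7 and between 158 and 395 with p7N3. For 11 monocyte/macrophage markers it was 1593 to 1744 CPM at day 3 and 139 to 776 in the other groups, and for 8 tenocyte markers 156 to 466 at days 0 and 3, 869 to 1909 at day 7 and with p7N3, and 1786 to 2720 at day 21. The sum of 8 pericyte/smooth muscle markers lay between 81.1 and 217 CPM at days 0 and 3, between 1197 and 2545 at day 7 and with p7N3, and between 312 and 756 at day 21. That of the 7 chondrocyte markers measured was 26.5 to 93.3 CPM at days 0 and 3 and 324 to 769 in the later groups. These sums differed between the days, as the levels below did, and their part in the results was not tested. A level in CPM is a share of all UMIs of a sum. A lower one can come from fewer cells of a kind, from less of that transcript per cell or from more of other RNA per cell. These cannot be told apart in sums.

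The genes lie on 8 chromosomes (mouse GRCm38, GENCODE annotation). Sfrp2 lies at chr3:83766321-83774316 and Dkk2 at chr3:132085292-132180304, both on the plus strand. On the plus strand also lie Sfrp1 (chr8:23411502-23449632), Sfrp4 (chr13:19623104-19632994), Wif1 (chr10:121033960-121100650) and Wnt5a (chr14:28504750-28527448). On the minus strand lie Dkk3 (chr7:112116017-112159057), Frzb (chr2:80411970-80447625), Rspo3 (chr10:29452416-29535867) and Wnt2 (chr6:17988940-18030585). All are protein-coding.

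The start regions of Sfrp2 and Dkk2 are shown because these inhibitors moved in opposite directions after injury. Windows from 250 bases before to 50 bases after the start (RefSeq, GRCm38.p6) were at hand for 5 of the 10 genes. Sfrp2 is chr3:83766071-83766370 and Dkk2 chr3:132085042-132085341, both 5′ to 3′ on the plus strand, with capitals for TATAAA (the TATA box), for GGGCGG (known from Sp1 binding) or for CCAAT (known from NF-Y binding), on either strand.
Sfrp2: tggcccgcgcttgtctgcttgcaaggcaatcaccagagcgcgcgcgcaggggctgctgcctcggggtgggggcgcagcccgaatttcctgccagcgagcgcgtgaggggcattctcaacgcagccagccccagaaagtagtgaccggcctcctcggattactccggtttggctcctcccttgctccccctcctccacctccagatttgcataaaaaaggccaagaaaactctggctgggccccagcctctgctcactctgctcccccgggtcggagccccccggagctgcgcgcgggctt
Dkk2: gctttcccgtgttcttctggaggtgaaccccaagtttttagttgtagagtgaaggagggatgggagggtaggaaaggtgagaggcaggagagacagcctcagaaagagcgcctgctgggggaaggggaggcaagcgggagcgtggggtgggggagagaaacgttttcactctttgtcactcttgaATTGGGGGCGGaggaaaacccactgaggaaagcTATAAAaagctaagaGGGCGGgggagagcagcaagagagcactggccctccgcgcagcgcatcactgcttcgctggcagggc
The Dkk2 window held all 3 motifs, CCAAT on the opposite strand and next to the first of 2 GGGCGG, and TATAAA between them, and its GC content was 57.7%. The Sfrp2 window held none of them and had a GC content of 66%. Of all 32851 windows of this length 13.6% held TATAAA, 35.7% GGGCGG and 37.4% CCAAT on either strand. The letters CTTTGAA (as bound by TCF/LEF factors) and their variant CTTTGAT were in 5.14% and 3.73% of all windows and in none of the 5 at hand, which says only that these letters were not there.

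Across the days the 10 genes did not move as a group. In stromal-like cells after injury Sfrp1, Sfrp2 and Dkk3 were higher than at day 0 on each of the 3 days, Dkk2 was lower on each, and Sfrp4 was lower at days 3 and 7 and higher at day 21.

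**Figure D1:**
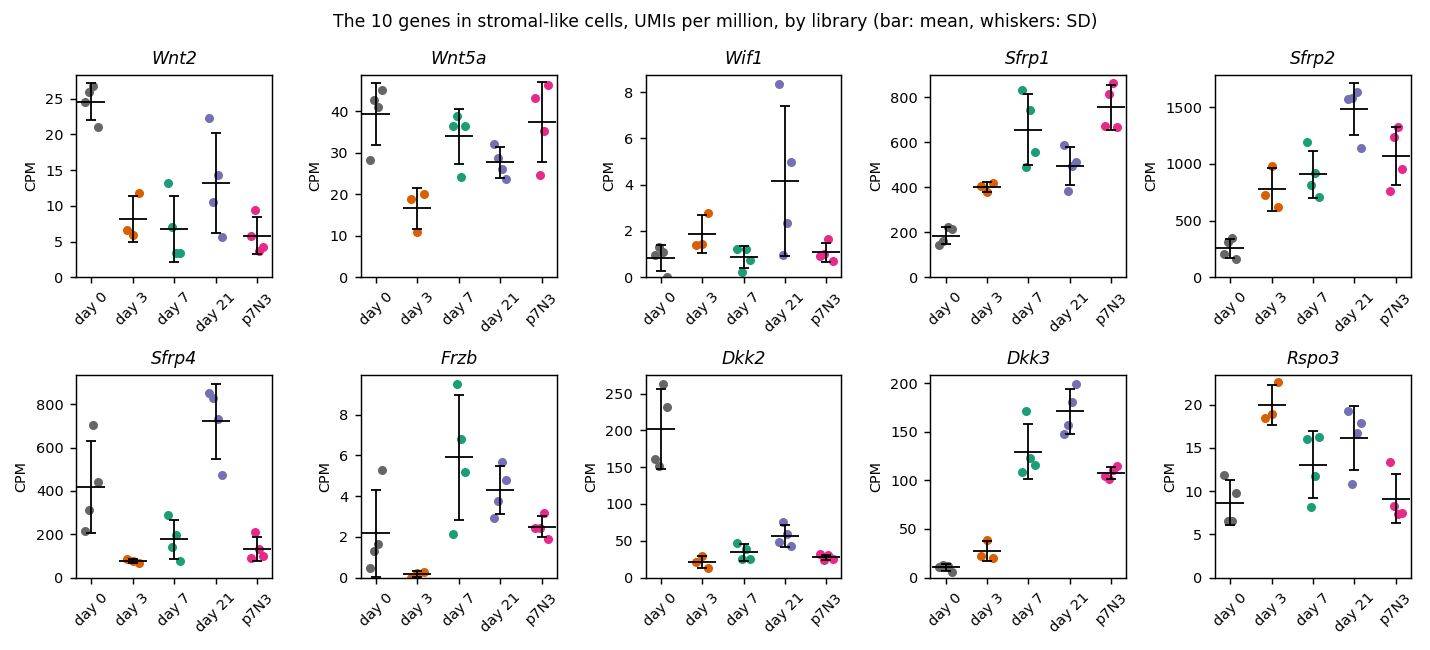
CPM in stromal-like cells (vertical axes, from 0) of each of the 10 genes by group; points are libraries, bars the mean and whiskers the SD. Dkk3 was 5.26 to 13.0 CPM at day 0 and 148 to 199 at day 21, and Dkk2 lay between 152 and 263 at day 0 and between 42.2 and 75.9 at day 21.

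Of the ligands, Wnt2 was 24.6, 25.9, 26.8 and 21.0 CPM at day 0. It was 6.60, 5.90 and 11.8 at day 3, 13.1, 6.98, 3.43 and 3.32 at day 7, and 22.3, 10.6, 14.4 and 5.58 at day 21. Day 0 lay above each library of days 3 and 7 and overlapped with day 21. Wnt2 was 2.93-fold lower at day 3 (log2 change -1.55 ± 0.24 SE, adjusted p = 7.7e-05) and 3.68-fold lower at day 7 (-1.88 ± 0.42, adjusted p = 0.0019), by edgeR's quasi-likelihood test. At day 21 the change was -0.87 ± 0.36 (adjusted p = 0.073), and without day 21 replicate 1 it was -1.32 (adjusted p = 0.0029). It was -1.26 with tenocyte- and chondrocyte-like cells added (adjusted p = 0.022).

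Wnt5a, a ligand known for signals that do not need beta-catenin, was 28.3, 42.8, 41.1 and 45.1 CPM at day 0 and 19.0, 10.8 and 19.9 at day 3. It was 36.5, 38.7, 24.1 and 36.3 at day 7, and 32.1, 28.8, 26.1 and 23.6 at day 21. Only the libraries of day 3 lay apart from day 0. The log2 change was -1.15 ± 0.23 at day 3 (adjusted p = 0.00057) and -0.16 at day 7, with an interval from -0.53 to 0.21. At day 21 it was -0.44 ± 0.16 (adjusted p = 0.045), a call that was lost in 15 of 21 alternatives, where the adjusted p reached 0.28.

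Sfrp1, a Frizzled-related inhibitor, was 144, 160, 225 and 213 CPM at day 0, 407, 377 and 420 at day 3, 833, 492, 744 and 556 at day 7, and 589, 381, 496 and 512 at day 21. No library of day 0 overlapped with a later one. Sfrp1 was 2.29-fold higher at day 3 (log2 change 1.20 ± 0.14, adjusted p = 7.4e-06), 3.57-fold higher at day 7 (1.84 ± 0.19, adjusted p = 5.3e-06) and 2.74-fold higher at day 21 (1.45 ± 0.17, adjusted p = 2.4e-05).

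Sfrp2 was 203, 310, 343 and 163 CPM at day 0, 725, 985 and 619 at day 3, 1193, 814, 921 and 709 at day 7, and 1571, 1580, 1637 and 1140 at day 21. The groups did not overlap with day 0. It was 3.26-fold higher at day 3 (log2 change 1.71 ± 0.21, adjusted p = 1.0e-05), 3.64-fold at day 7 (1.87 ± 0.22, adjusted p = 1.3e-05) and 6.03-fold at day 21 (2.59 ± 0.20, adjusted p = 1.2e-06). It rose further from day 7 to day 21, by 0.75 ± 0.17 on the log2 scale (adjusted p = 0.0067). That difference was 0.21 (adjusted p = 0.38) once tenocyte- and chondrocyte-like cells were added to the sums.

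Sfrp4 fell and rose again. It was 213, 311, 704 and 442 CPM at day 0, 87.8, 76.2 and 67.0 at day 3, 288, 141, 198 and 78.3 at day 7, and 852, 830, 732 and 475 at day 21. Libraries of day 0 overlapped with those of days 7 and 21 but not with day 3. The log2 change from day 0 was -2.36 ± 0.31 at day 3 (adjusted p = 1.6e-05) and -1.24 ± 0.39 at day 7 (adjusted p = 0.015), the latter at -0.81 (adjusted p = 0.086) without day 0 replicate 3. From day 7 to day 21 Sfrp4 was 4.23-fold higher (log2 change 2.08 ± 0.34, adjusted p = 0.0018), and this call held in 20 of 20 alternatives. Against day 0 the value of day 21 was 0.82 ± 0.30 (adjusted p = 0.045) and was called in 12 of 21 alternatives. It was not called by DESeq2 (adjusted p = 0.12) and lost its call without day 0 replicate 1, 2 or 4 (log2 changes 0.59, 0.69 and 0.85) or day 21 replicate 1, 2 or 3 (0.73, 0.76 and 0.81). With tenocyte- and chondrocyte-like cells added to the sums it was 0.41 (adjusted p = 0.29).

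Dkk2, a Dickkopf protein that binds the co-receptor Lrp6, was 161, 152, 263 and 231 CPM at day 0. It was 20.7, 29.3 and 13.4 at day 3, 47.3, 24.9, 39.3 and 24.9 at day 7, and 47.6, 75.9, 59.1 and 42.2 at day 21. Each library of day 0 lay above all others. Dkk2 was 8.91-fold lower at day 3 (log2 change -3.16 ± 0.25, adjusted p = 1.6e-07), 5.91-fold lower at day 7 (-2.56 ± 0.24, adjusted p = 2.0e-06) and 3.57-fold lower at day 21 (-1.84 ± 0.21, adjusted p = 2.1e-05). Between days 7 and 21 it was 0.75 ± 0.24 higher (adjusted p = 0.032). This was lost without day 7 replicate 2 or 4 (0.63 both) and without day 21 replicate 2 or 3 (0.59 and 0.73), with adjusted p from 0.073 to 0.092. It was 0.39 (adjusted p = 0.21) once tenocyte- and chondrocyte-like cells were added.

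Dkk3, the Dickkopf family member least tied to Lrp6, had the largest rise of the 10. It was 11.3, 13.0, 12.1 and 5.26 CPM at day 0, 22.1, 38.7 and 20.2 at day 3, 108, 171, 123 and 116 at day 7, and 148, 157, 181 and 199 at day 21. The days did not overlap apart from days 7 and 21. Dkk3 was 2.79-fold higher at day 3 (log2 change 1.48 ± 0.30, adjusted p = 0.00058), 12.6-fold at day 7 (3.66 ± 0.22, adjusted p = 5.9e-08) and 16.9-fold at day 21 (4.08 ± 0.19, adjusted p = 1.4e-08). The step from day 7 to day 21 was 0.45 ± 0.15 (adjusted p = 0.044) and was called in 7 of 20 alternatives. It was lost without day 7 replicate 1, 3 or 4 (0.37, 0.43 and 0.40) and without any 1 library of day 21 (0.37 to 0.51).

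Rspo3 was 11.8, 6.48, 6.57 and 9.77 CPM at day 0, 18.4, 18.9 and 22.6 at day 3, 16.05, 8.13, 11.7 and 16.3 at day 7, and 19.3, 10.8, 16.7 and 17.8 at day 21. Day 3 lay above day 0, and days 7 and 21 overlapped with it. The log2 change was 1.22 ± 0.21 at day 3 (adjusted p = 0.00017), 0.54 ± 0.30 at day 7 (adjusted p = 0.15) and 0.91 ± 0.25 at day 21 (adjusted p = 0.012). Without day 7 replicate 2 the value of day 7 was 0.71 (adjusted p = 0.021), and without day 0 replicate 3 that of day 21 was 0.76 (adjusted p = 0.056). With tenocyte- and chondrocyte-like cells added the value of day 21 was 0.34 (adjusted p = 0.27).

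Wif1 and Frzb had the lowest mean levels of the 10 in stromal-like cells. Wif1 at day 0 and Frzb at days 0 and 3 were near or under the floor. Wif1 had at most 2 UMIs in any library of day 0, between 13 and 21 at day 3 and between 6 and 27 at day 7. At day 21 it had 68, 4, 10 and 56 UMIs, or 8.34, 0.943, 2.35 and 4.96 CPM, against 0.238 to 1.23 CPM at day 7. It was 5.54-fold higher at day 21 than at day 7 (log2 change 2.47 ± 0.58, adjusted p = 0.0096), and the 2 groups overlapped through replicate 2 of day 21. In the libraries with 68 and 56 UMIs most of these came from few cells of 1 sub-cluster, as given below with the sub-clusters. Frzb had at most 7 UMIs in any library of days 0 and 3. It had between 35 and 239 at day 7 and between 16 and 54 at day 21, with means of 5.91 ± 3.06 (SD, n = 4) CPM at day 7 and 4.29 ± 1.18 (n = 4) at day 21. Its change at day 7 against day 0 was 1.59 ± 0.70 (adjusted p = 0.069) and became 2.52 without day 0 replicate 4 (adjusted p = 0.031) and 1.84 without day 7 replicate 1 (adjusted p = 0.0092). It was called in 7 of 21 alternatives, DESeq2 among them (adjusted p = 0.028). At day 21 it was 1.10 ± 0.52 against day 0 (adjusted p = 0.11), and 2.01 without day 0 replicate 4 (adjusted p = 0.015) or 3.53 with tenocyte- and chondrocyte-like cells added (adjusted p = 0.00069).

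In counts, 4 of the 8 genes tested were called higher and 4 lower at day 3 against day 0, where 33.3% of all 10391 genes tested were called higher and 32.8% lower. At day 7 it was 3 higher and 3 lower of 10, with 28.4% and 26.3% of all genes. At day 21 it was 5 higher and 2 lower of 9, with 18.8% and 18.7% of all genes. Against day 7, day 21 had 5 higher and none lower of 10, with 18% and 16.5% of all genes, and DESeq2 called 5 there as well. The median log2 change over the genes tested was 0.02 at day 3, 0.29 at day 7 and 0.91 at day 21 against day 0, beside medians over all genes of 0.00, 0.02 and -0.01. The comparisons with day 0 share its 4 libraries. In the whole site, without regard to cell type, Dkk3 was 9.62 ± 1.36 CPM at day 0 (n = 4) and 147 ± 20.2 at day 21 (n = 4), and Dkk2 75.6 ± 32.1 and 30.2 ± 5.82.

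**Figure D2:**
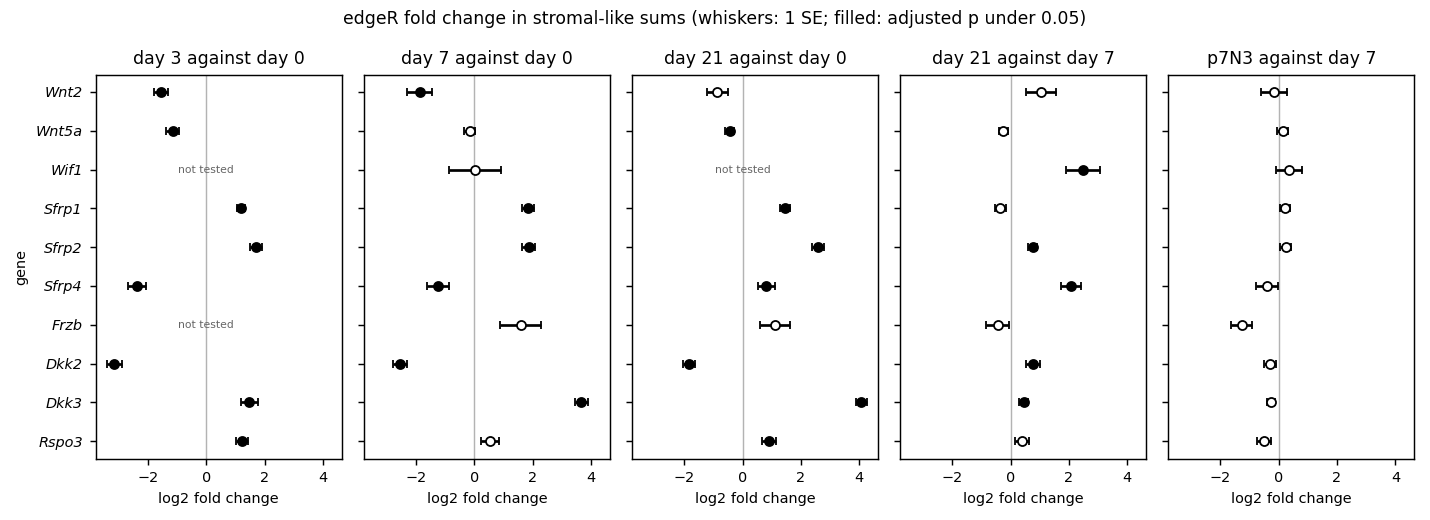
Log2 fold change (horizontal axes) of the 10 genes in stromal-like sums for 5 comparisons, by edgeR; whiskers are 1 SE and filled points have an adjusted p under 0.05. Dkk3 (4.08) and Sfrp2 (2.59) lie farthest to the right for day 21 against day 0, Dkk2 (-1.84) farthest to the left, and no point is filled for p7N3.

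A transcript was also found in more or fewer cells. With each cell thinned to 1500 UMIs, Dkk2 was detected in 17.6% ± 3.09 (SD, n = 4) of stromal-like cells at day 0 and in 7.09% ± 1.75 (n = 4) at day 21. Without thinning the shares were 34.8% and 22.0%. Sfrp2 went from 9.60% ± 1.19 to 37.5% ± 4.68 of thinned cells (15.6% and 64.5% unthinned), and Dkk3 from 1.42% ± 0.559 to 17.1% ± 3.84 (4.54% and 59.6%). Sfrp4 was found in 16.8% ± 3.90, 7.94% ± 1.60, 14.3% ± 5.28 and 31.3% ± 3.19 of thinned cells at days 0, 3, 7 and 21. Monocyte/macrophage-like cells, which should lack these transcripts, gave thinned shares of at most 4.28% for Sfrp2 and 2.14% for Sfrp1. Unthinned, their highest shares were 26.1% ± 11.8 for Sfrp2 and 13.7% ± 2.48 for Sfrp1 (both day 3, n = 3), against 0.333% and 1.28% at day 0. In T/NK lymphocyte-like cells the thinned share of Sfrp2 was 10% at day 3 and 25% at day 21 (1 library each), and at most 3.24% in the other groups. At thinning 67 cells of day 0 were left out as too shallow.

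The comparison of p7N3 with day 7 asks whether activation of CD47 changes the injury site. None of the 10 genes was called in stromal-like cells by edgeR, where 0.00739% of the 13528 genes tested were called. At an unadjusted p under 0.05 there was 1 of the 10, Frzb, and DESeq2 called 1, also Frzb. Over all genes edgeR gave 2080 at an unadjusted p under 0.05 and DESeq2 called 301.

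Frzb was 2.16, 9.48, 6.81 and 5.19 CPM at day 7 and 2.43, 2.45, 3.19 and 1.90 with p7N3. Replicate 1 of day 7 lay within the p7N3 libraries. The log2 change was -1.27 ± 0.37, with an unadjusted p of 0.0056 and an adjusted p of 0.16 in edgeR, and 0.034 in DESeq2. The adjusted p ranged from 0.034 to 0.35 over 20 alternatives, and the change from -1.54 to -0.95.

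The other genes had smaller differences. Rspo3 was 16.05, 8.13, 11.7 and 16.3 CPM at day 7 and 13.3, 8.27, 7.34 and 7.50 with p7N3 (log2 change -0.51, interval -0.995 to -0.03, adjusted p = 0.34). Dkk3 was 102 to 115 CPM with p7N3 against 108 to 171 at day 7 (-0.27, interval -0.54 to 0.00, adjusted p = 0.37). Sfrp1 was 674, 813, 865 and 668 CPM with p7N3 and Sfrp2 761, 1237, 1328 and 957, with intervals of the change from -0.13 to 0.54 and from -0.15 to 0.63. For Wnt5a the interval ran from -0.25 to 0.51, for Dkk2 from -0.70 to 0.10, for Sfrp4 from -1.14 to 0.33, for Wif1 from -0.56 to 1.24 and for Wnt2 from -1.04 to 0.71. A 2-fold change of Sfrp1, Sfrp2, Wnt5a, Dkk2 or Dkk3 in either direction lay outside these intervals, and one of Wnt2, Wif1, Sfrp4 or Frzb did not in at least 1 direction. The intervals are the estimate ± 2 SE, a little narrower than the test's own range. The unadjusted p of Rspo3 was 0.059 although its interval left out 0, and a 2-fold fall of Rspo3 is not excluded.

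Stromal-like cells fell into 20 sub-clusters, named here by a pair of leading genes. The levels of the 10 genes in them are descriptions, since the cells were clustered on the same counts, although the 10 genes were left out of the variable genes. Values are means over libraries with at least 10 cells of the sub-cluster. These libraries are not of the same days for each sub-cluster, so that an order of sub-clusters also holds differences between days. The Myoc/Angptl7 sub-cluster, for example, had 527 cells at day 0 and 16 at day 7, and the Has1/Ifi203 one 181 and 418.

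The Gzme/Gzmb sub-cluster, led by granzyme genes and found mostly at day 7 and with p7N3, had 1889 ± 364 CPM of Sfrp1 and 2546 ± 691 of Sfrp2 (SD, n = 9). The next highest was the Pi16/Cxcl13 sub-cluster, with 757 ± 216 and 2311 ± 668 (n = 12). The 2 sub-clusters differed by less than 1 SD for Sfrp2 and by more for Sfrp1. At a finer clustering Sfrp1 was highest in a Gzme/Gzmd sub-cluster (2454 ± 210, n = 8). Sfrp2 was then highest in a Trib1/Fosb (3680 ± 788, n = 8) and a Gas6/Brinp1 sub-cluster (3577 ± 740, n = 10). Sfrp1 was itself among the 10 leading genes of the Gzme/Gzmb sub-cluster, and Sfrp2 among those of the Gas6/Brinp1 one. Pi16 is a marker of adventitial fibroblasts.

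Sfrp4 was 2063 ± 841 CPM (n = 16) in the Eln/Gdf10 sub-cluster and 774 ± 226 (n = 12) in the Nov/Mgp one, and was itself among the 10 leading genes of both. In the former it was 1934 ± 364 at day 0, 1713 ± 436 at day 7, 3035 ± 1089 at day 21 and 1571 ± 511 with p7N3 (n = 4 each). Wnt2 was highest in the Myoc/Angptl7 (40.4 ± 17.6, n = 7) and Pi16/Cxcl13 (37.3 ± 19.4, n = 12) sub-clusters, which did not differ beyond their spread. Dkk2 was highest in the Myoc/Angptl7 sub-cluster (254 ± 87.6, n = 7), above the Has1/Ifi203 one (104 ± 41.1, n = 16).

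Dkk3 (252 ± 55.1 CPM, n = 9) and Frzb (10.2 ± 6.04, n = 9) were highest in the C1qtnf3/Scx sub-cluster, Scx being a transcription factor of tendon cells. Wnt5a was 81.2 ± 43.1 (n = 8) in the Cxcl3/Crabp1 and 68.1 ± 46.2 (n = 10) in the Col7a1/Actg2 sub-cluster, which overlapped. Rspo3 was 29.9 ± 15.98 (n = 8) in the Dlk1/Agtr2 and 27.5 ± 9.77 (n = 6) in the Bglap2/Prg4 sub-cluster. Wif1 was 35.3 ± 75.1 (n = 10) in the Col7a1/Actg2 sub-cluster, a mean that rested on 2 libraries of day 21 with 224 and 113 CPM from 54 and 45 UMIs, in 14 and 21 cells. The other 8 libraries held 0.00 to 6.77 CPM. At a finer clustering the highest level of Wif1 was instead in a Bglap2/Chchd10 sub-cluster (16.9 ± 19.6, n = 4).

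**Figure D3:**
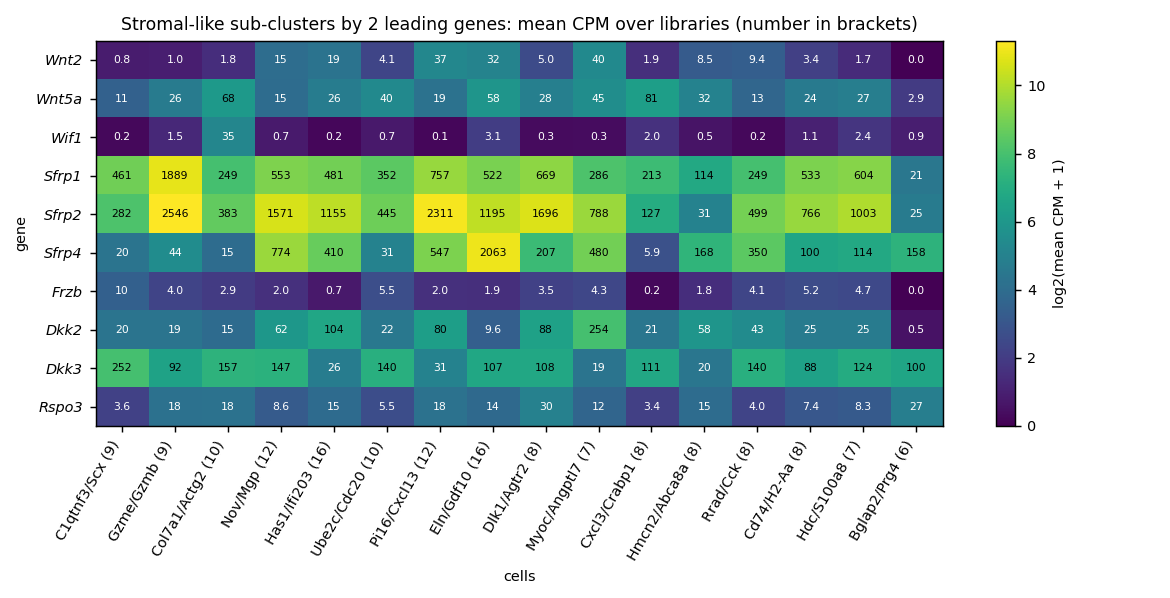
Mean CPM of the 10 genes (rows, printed in the cells) in 16 stromal-like sub-clusters (columns, by their leading genes, number of libraries in brackets); colour is log2(mean CPM + 1). Sfrp1 and Sfrp2 peak in the Gzme/Gzmb column, Sfrp4 in Eln/Gdf10, Dkk2 in Myoc/Angptl7 and Dkk3 in C1qtnf3/Scx.

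The make-up of the stromal-like cells differed between the days beside these levels. The Myoc/Angptl7 sub-cluster held 46.6% ± 5.51 (SD, n = 4) of the stromal-like cells at day 0 and 77.5% ± 5.83 of their Dkk2 UMIs, 79.7% ± 15.2 of Sfrp2 and 65.7% ± 4.67 of Sfrp1. At day 21 the Nov/Mgp sub-cluster held 43.0% ± 5.86 of the cells and 61.2% ± 11.3 of the Dkk2, 55.6% ± 7.55 of the Sfrp2 and 61.6% ± 8.38 of the Dkk3 UMIs. At day 7 the Gzme/Gzmb sub-cluster was 13.2% ± 4.47 of the cells and gave 43.9% ± 14.7 of the Sfrp1 UMIs. With p7N3 it was 21.2% ± 4.004 of the cells and gave 54.9% ± 6.42. The C1qtnf3/Scx sub-cluster was 19.7% ± 10.4 of the cells at day 7 and 10.6% ± 2.83 with p7N3, and gave 48.3% ± 20.3 and 37.0% ± 18.9 of the Frzb UMIs. How much of each change in the whole stroma came from these shares was not tested.

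**Figure D4:**
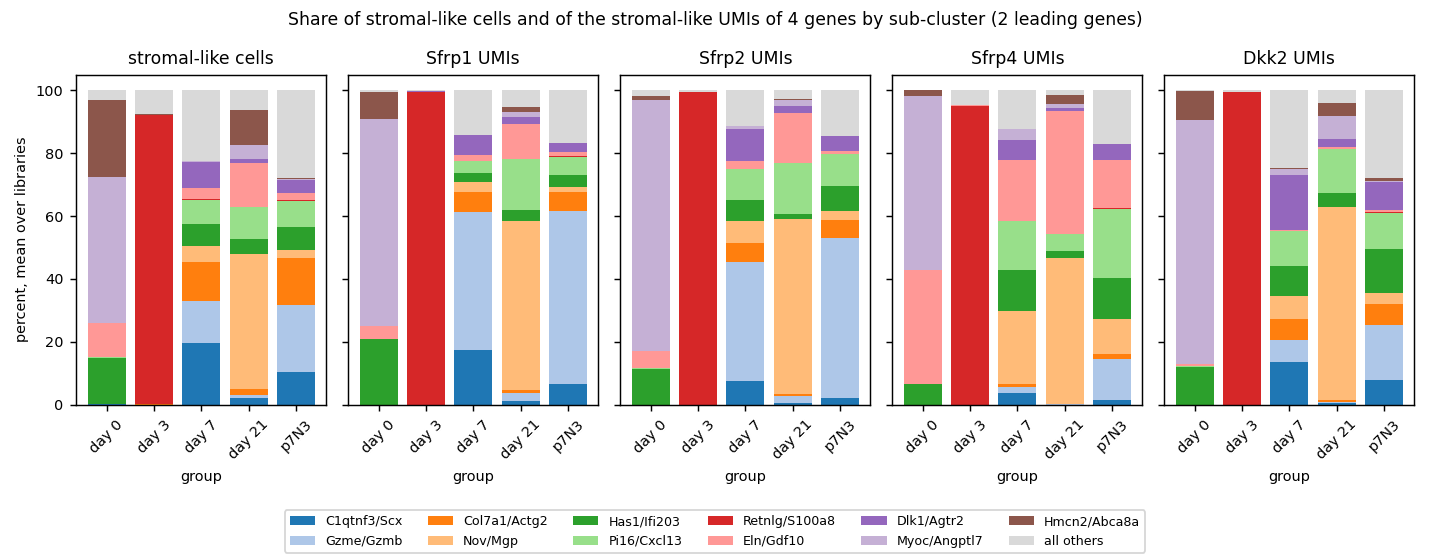
Share of stromal-like cells (first panel) and of the stromal-like UMIs of Sfrp1, Sfrp2, Sfrp4 and Dkk2 that each sub-cluster held (vertical axis, percent, mean over the libraries of a group). The Myoc/Angptl7 sub-cluster holds 46.6% of the cells and 77.5% of the Dkk2 UMIs at day 0, the Retnlg/S100a8 one 91.8% of the cells at day 3, and the Nov/Mgp one 43.0% at day 21.

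Within sub-clusters with enough cells in both groups the changes could be fitted again. In the Myoc/Angptl7 sub-cluster none of 6 genes tested was called at day 21 against day 0 by edgeR or DESeq2. EdgeR called 2.12% of all 5041 genes tested in this sub-cluster. Its unadjusted p was under 0.05 for 2 of the 6 and for 692 of all genes. There Dkk2 was 276, 220, 406 and 324 CPM at day 0 and 207, 157 and 186 at day 21, without overlap (log2 change -0.75 ± 0.22, adjusted p = 0.097). Without day 0 replicate 2 it was -0.88 (adjusted p = 0.026). Sfrp2 was 317, 558, 569 and 201 CPM at day 0 and 932, 283 and 2652 at day 21 (1.64 ± 0.45, adjusted p = 0.073), and 2.10 without day 21 replicate 2 (adjusted p = 0.0014). The libraries of day 21 had 15 to 23 cells each there.

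In the Hmcn2/Abca8a sub-cluster 2 of 4 genes tested rose, where 3.68% of all genes were called. The other 2 were not called, Dkk2 at -0.66 ± 0.34 (adjusted p = 0.39) and Wnt5a at 0.48 ± 0.36 (adjusted p = 0.61). Sfrp4 was 19.2, 40.8, 7.73 and 13.3 CPM at day 0, from 3 to 13 UMIs per library, and 143, 695, 245 and 176 at day 21. It was 18.8-fold higher (log2 change 4.23 ± 0.50, adjusted p = 2.7e-05). Sfrp1 was 60.7, 51.0, 72.1 and 71.1 CPM at day 0 and 92.7, 114, 128 and 323 at day 21 (1.14 ± 0.29, adjusted p = 0.030). The call of Sfrp1 was lost when any 1 library of day 0 was left out (log2 changes 1.08 to 1.21, adjusted p from 0.055 to 0.13). Sfrp2 did not pass the filter of the main fit there. Of the 10 alternatives that tested it 7 called it (log2 changes over the 10 from 1.82 to 3.38, adjusted p up to 0.088).

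For p7N3 against day 7 the C1qtnf3/Scx, Gzme/Gzmb and Col7a1/Actg2 sub-clusters were fitted, where 0.163%, 0% and 0.00996% of all genes were called. EdgeR called none of the 10 genes there, of 7, 8 and 7 tested. In its test 1, 3 and 1 of these had an unadjusted p under 0.05. Over all genes that held for 1022 of 9794, 1377 of 10488 and 594 of 10037. DESeq2 called 1 of the 10 genes, Rspo3 in the Gzme/Gzmb sub-cluster (adjusted p = 0.022). There Rspo3 was 22.4, 24.4, 18.1 and 20.4 CPM at day 7 and 15.8, 11.9, 10.4 and 10.9 with p7N3, without overlap (log2 change -0.83 ± 0.17, adjusted p = 0.092 in edgeR). Sfrp4 in the same cells was 38.8, 29.1, 14.1 and 14.5 CPM at day 7 and 38.3, 46.7, 125 and 68.5 with p7N3, and replicate 1 of both groups overlapped (1.51 ± 0.38, adjusted p = 0.14). Frzb there was 3.05 to 7.72 CPM at day 7 and 0.545 to 4.03 with p7N3 (-1.36 ± 0.43, adjusted p = 0.20).

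Stromal-like cells held most UMIs of 8 of the 10 genes. They were 13755 of the 39541 kept cells and also held the most UMIs over all genes. These were 220652052 UMIs, and monocyte/macrophage-like cells came next with 104064348. Of all UMIs in the kept cells, stromal-like cells held 90.6% for Wnt2, 91.7% for Wnt5a, 93.8% for Sfrp1, 94.7% for Sfrp2, 86.9% for Sfrp4, 86.1% for Dkk2, 76.8% for Dkk3 and 90.8% for Rspo3. Tenocyte/chondrocyte-like cells, which make matrix of tendon and cartilage, held a further 19.0% of Dkk3. Wif1 and Frzb were shared out otherwise. Frzb had 39.0% of its UMIs in stromal-like, 51.4% in tenocyte/chondrocyte-like and 6.50% in Schwann cell-like cells, and Wif1 had 40.8% in stromal-like cells, 33.3% in tenocyte/chondrocyte-like cells and 23.6% in a keratin-led mixed cluster of 190 cells.

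**Figure D5:**
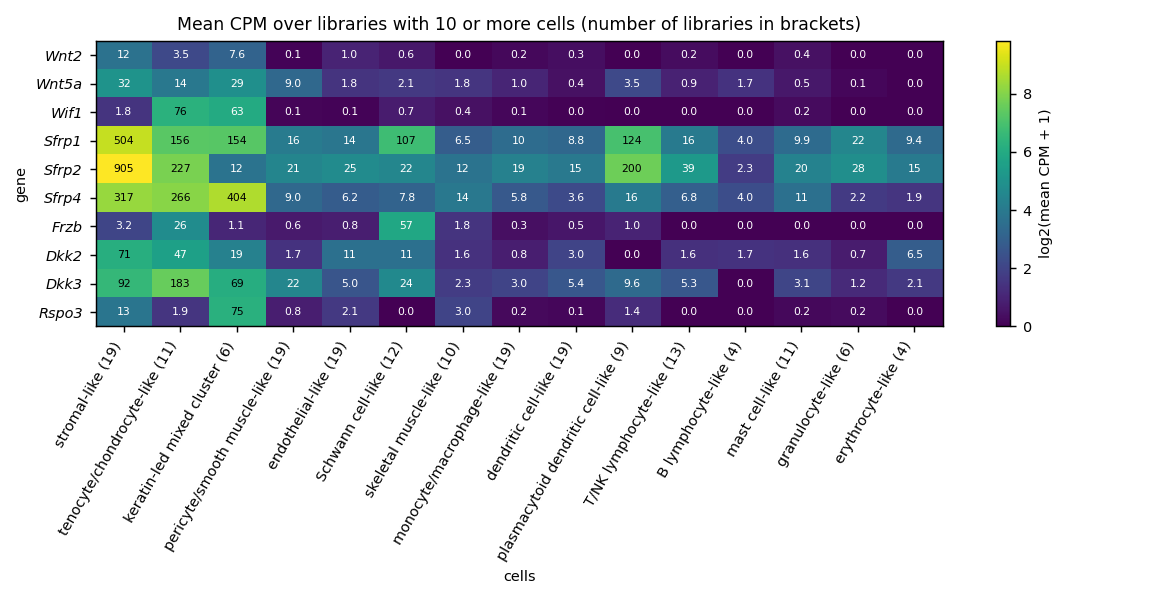
Mean CPM of the 10 genes (rows, printed in the cells) in 15 kinds of cells (columns, number of libraries with at least 10 such cells in brackets); colour is log2(mean CPM + 1). Stromal-like cells hold the highest mean for Wnt2, Wnt5a, Sfrp1, Sfrp2 and Dkk2, tenocyte/chondrocyte-like cells for Wif1 and Dkk3, and Schwann cell-like cells for Frzb. The keratin-led cluster does so for Sfrp4 (404 against 317 in stromal-like cells) and Rspo3 (74.8 against 13.0). With the UMIs of these libraries pooled, Wif1 is instead highest in the keratin-led cluster (105 CPM). So is Wnt2 (10.1 against 7.68 in stromal-like cells). Pooled Frzb is 47.3 CPM in tenocyte/chondrocyte-like and 46.7 in Schwann cell-like cells. The other genes keep their leading kind of cells.

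Within a library, stromal-like sums were set against 3 other kinds of cells. The cells had been sorted into kinds by their transcripts, so that these differences are descriptions and their p-values no independent test. All 10 genes were higher than in monocyte/macrophage-like cells, by 3.85 (Wif1) to 5.98 (Rspo3) on the log2 scale, where 46.9% of all genes were called higher and 35.7% lower. All 10 were higher than in endothelial-like cells (39.2% and 35.4% of all genes), with the smallest differences for Dkk2 (2.28 ± 0.41 SE) and Frzb (2.28 ± 0.34), and the next for Rspo3 (2.74 ± 0.22). Of 9 genes tested 9 were higher than in pericyte/smooth muscle-like cells (33.9% and 29.1%), with the smallest differences for Wnt5a (1.87 ± 0.13) and Dkk3 (2.33 ± 0.19). Wnt2 had 1 UMI in 1905 pericyte/smooth muscle-like cells, and no fold is given. The difference of Dkk2 from endothelial-like cells was not the same on all days. In endothelial-like cells Dkk2 was 1.70 ± 1.31 CPM at day 0 (n = 4, 9 UMIs in 1111 cells), 3.18 ± 3.74 at day 3 (n = 3), 20.1 ± 1.70 at day 7 (n = 4, 198 UMIs in 737 cells), 10.7 ± 4.71 at day 21 (n = 4) and 19.2 ± 6.37 with p7N3 (n = 4). Its libraries of day 0 lay below each of days 7 and 21, whereas in stromal-like cells those of day 0 lay above all others. The make-up of the endothelial-like cells differed as well. A Timp4/Tcf15 cluster held 1013, 58 and 402 of them at days 0, 7 and 21, and a Plvap/Aplnr cluster 64, 558 and 301. Neither the pattern nor the part of this make-up in it was tested.

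Schwann cell-like cells, the glia of peripheral nerve, had 57.2 ± 42.0 CPM of Frzb (SD, n = 12). They had 96.7 ± 43.3 at day 0 (n = 4, 40 UMIs in 109 cells) and 53.5 ± 20.01 at day 21 (n = 4, 70 UMIs in 183 cells), while stromal-like cells of day 0 had 2.17 CPM. The levels of both days overlapped. Wif1 had 1 UMI at day 21 and none at day 0 in the same cells.

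Tenocyte/chondrocyte-like cells were found mainly at day 21 (957 of 1137 cells). They were 1 cluster in which 8 tenocyte and 7 chondrocyte markers were raised. The mix of the 2 kinds may differ between the days, and its part in the levels below was not tested. At day 21 the cluster held 269 ± 21.8 CPM of Dkk3, 295 ± 91.7 of Sfrp2, 243 ± 112 of Sfrp4, 221 ± 56.4 of Sfrp1 and 48.1 ± 21.3 of Frzb (n = 4). At day 0, in 43 cells of 3 libraries, Wif1 was 168 ± 49.2 CPM from 50 UMIs, while Frzb had no UMI. Wif1 was 9.21 ± 3.77 in these cells at day 21 and did not overlap with day 0, on few cells. At day 7 it was 0 and 18.5 CPM in 2 libraries (3 UMIs in 77 cells), and with p7N3 54.1 and 225 CPM in 2 libraries (47 UMIs in 24 cells), without overlap and with no test. In the keratin-led mixed cluster Rspo3 was 145 ± 123 CPM (n = 3) and Sfrp4 553 ± 638 (n = 3) at day 21. All 10 stromal markers were raised in that cluster, and its keratin genes led.

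Of 71 other genes of the Wnt pathway, 6 were called higher and 14 lower of 33 tested at day 3 against day 0. At day 7 it was 14 higher and 15 lower of 45, and at day 21 12 higher and 4 lower of 39. From day 7 to day 21, 16 rose and 5 fell of 45. With p7N3 none of 45 was called by edgeR, 9 had an unadjusted p under 0.05, and DESeq2 called 1. That gene, named here after its values were seen, was the R-spondin Rspo2, with 12.4 ± 2.30 CPM at day 7 and 7.37 ± 0.963 with p7N3 (n = 4 each), without overlap (log2 change -0.75 ± 0.15, adjusted p = 0.10 in edgeR). Among the 20 receptors 4, 7 and 6 were higher and 5, 3 and 1 lower at days 3, 7 and 21, with 4, 7 and 8 not called and 7, 3 and 5 not tested. Among the 17 ligands 0, 2 and 2 were higher and 2, 3 and 2 lower. Of the ligands 1 was not called on each day, and 14, 11 and 12 were not tested, so that few ligands stand behind these counts. Background shares for these counts are those given above.

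Wisp1, a secreted protein induced by Wnt signals, had the largest rise at day 3 (log2 change 4.11 ± 0.17, adjusted p = 2.7e-10) and day 7 (4.94 ± 0.19, adjusted p = 2.6e-09). The ligand Wnt11 had the largest fall at day 3 (-3.60 ± 0.17, adjusted p = 8.0e-10), and the inhibitor Sfrp5 at day 7 (-5.51 ± 0.69, adjusted p = 2.35e-05). At day 21 the ligand Wnt16 rose most (5.61 ± 0.90, adjusted p = 0.00033) and the ligand Wnt10b fell most (-2.63 ± 0.43, adjusted p = 0.00037). Wnt16 had 2 UMIs in all at day 0, so that the size of its fitted rise is uncertain, and was 17.9 ± 10.7 CPM at day 21 (n = 4). Sfrp5 had 10 UMIs at day 7 and 34 at day 0, and Wnt10b 19 at day 21 and 27 at day 0. Between days 7 and 21 the R-spondin receptor Lgr6 rose by 2.38 ± 0.60 (adjusted p = 0.013), from 19 UMIs at day 7 and 30 at day 21, and the ligand Wnt4 changed by -1.77 ± 0.26 (adjusted p = 0.0011).

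The genes whose levels were most alike over the 19 stromal-like sums were named by Pearson's r of log2(CPM + 1) among 7896 genes with a mean of at least 10 CPM. These values are descriptions, since the sums share libraries, days and depth. Dkk3 was most like 1500015O10Rik (r = 0.986), Ptprs (0.985) and the cartilage collagen Col11a1 (0.977). Dkk2 was most like Ncoa1 (0.979), Ptprg (0.976) and Ramp2 (0.976). Sfrp1 was most like Cox6c (0.963), Runx2 (0.942), a transcription factor of bone formation, and the matrix protein Tnc (0.940). Sfrp2 was most like Mgat1 (0.949), Igfbp4 (0.932) and Lhfpl2 (0.925), and Sfrp4 most like Wfdc1 (0.942), Prnp (0.927) and Adamts2 (0.919). Wnt2 (Hdac7 0.896, Cmah 0.894, Irak3 0.886), Rspo3 (Rpl23 0.870, Rplp1 0.867, Rps20 0.860) and Wnt5a (Pgrmc1 0.859, Ehmt1 0.833, Tfpt 0.831) had weaker likeness to any gene. Among the 10 themselves Sfrp2 and Dkk3 were the most alike (r = 0.887), followed by Sfrp1 with Sfrp2 (0.811) and Sfrp1 with Dkk3 (0.804), and Dkk2 ran against Sfrp1 (-0.740).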

How the data were processed

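Cells of the tenotomy site were captured in 19 libraries with the 10× Genomics single cell 3′ method. The authors deposited raw UMI counts for 27998 genes per barcode, without normalization. Per the labels' processing notes and the study's methods these came from Cell Ranger and the mm10 genome. The notes also list GRCh38, and Cell Ranger and Seurat carry no version there. A barcode was taken as a cell with 500 genes or more and a mitochondrial share of UMIs of 25% or less. Day 0 replicate 1 came with 737280 barcodes and the other libraries with 614 to 3786, so that these limits alone picked its cells. They kept 1003 of its barcodes, and a rule of Cell Ranger on UMIs per barcode, used as an alternative, kept 907. Under that rule Wnt5a was not called at day 21 against day 0 (log2 change -0.43, adjusted p = 0.058, edgeR). Doublets stayed in, other than in an alternative. Clustering used scanpy 1.11.5 with leidenalg 0.10.2, the 10 genes and the pathway list having been left out of the variable genes, and clusters were named "-like" from marker lists.

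For each library and kind of cell or sub-cluster with at least 10 cells the UMIs were added up, and given as CPM, scaled to all UMIs of that sum. UMIs count captured molecules at the 3′ end and were not scaled by transcript length, so that levels were compared within a gene only. Log2 fold changes are those of edgeR 4.0.16 (quasi-likelihood test, TMM factors, filterByExpr, Benjamini-Hochberg adjustment over all genes tested), with a threshold of 0.05. SE is the fold change divided by the square root of the F statistic, and an interval is the estimate ± 2 SE. Cell types of 1 library were compared with the library as a block. DESeq2 1.42.0 was an alternative, as were RLE factors, no filter on low counts, leaving out each library, a block for the replicate number, and other choices of cells and clusters. R 4.3.3 and Python 3.11.15 were used.

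All of the 10 genes that passed the filter on low counts were tested in each comparison, and not all of these values are printed. From a list of 71 other Wnt pathway genes the counts in each direction are given, together with the gene of the largest change among those called in a direction. The genes, lists and tests were chosen with earlier results of these data known. On simulated data with 200 changed genes, 77.5% of 2-fold and 96.5% of 4-fold changes were recovered for day 21 against day 0 and 80% and 97.5% for p7N3 against day 7, with 5.34% to 6.63% of the calls false. The real comparison of p7N3 with day 7 called 1 of 13528 genes, so that its adjustment was stricter than in the simulation. The simulated shares also cover genes of all levels, and may not hold there or for genes of low counts. The study states that its single cell experiments were repeated to measure the variability of mice, but the labels tie no library to a mouse, so that p-values measure the spread between these libraries, which may in part be technical. Intervals and floors cover counting error only where they are given for counts. Genotype could not be compared, and proteins and reads were not analysed here.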

Additional observations from a re-analysis of the deposited data

Results flagged for a closer look

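A library that stood far from the other 3 of its group was looked for in each of the 40 sets of 4 stromal-like values, 10 genes in 4 groups, by Dixon's test. In 3 sets a library was marked, and chance marks about 1 in 20. Wnt5a was 24.1 CPM in day 7 replicate 3, against 36.3 to 38.7 in the others of day 7. Sfrp2 was 1140 CPM in day 21 replicate 4, against 1571 to 1637 in the others of day 21. Rspo3 was 13.3 CPM in p7N3 replicate 1, against 7.34 to 8.27 in the others with p7N3. Day 3, with 3 libraries, was not examined in this way.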

How the results depend on the processing

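Over the 10 genes and all comparisons 2159 values were recomputed under alternatives. Of these 2071 kept their side of the threshold, 51 lost a call, 35 gained one and 2 turned. In the latter, adding tenocyte- and chondrocyte-like cells to the stromal-like sums turned Wif1 to -3.30 at day 7 against day 0 and Frzb to 1.78 at day 21 against day 7. The same addition called Wnt5a (-0.77) and Sfrp1 (-0.70) lower at day 21 against day 7. Among the 2071 values, 45 changed sign without a call in either setting. In counts of genes called, DESeq2 gave 1 for p7N3 against day 7 and 1 in the Gzme/Gzmb sub-cluster, where edgeR gave none. No filter on low counts gave 3 in the Myoc/Angptl7 sub-cluster at day 21 against day 0, and for p7N3 1 in the C1qtnf3/Scx and 2 in the Gzme/Gzmb sub-cluster, where the main counts were 0. Without the filter, genes that the main fit left out were tested too, such as Dkk3 in Myoc/Angptl7. The shares of all genes called without the filter are not given. The cause was not tested.

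Deviations from the group mean correlated at -0.137 to 0.265 between libraries of the same number and at -0.331 to 0.266 between the others. For p7N3 and day 7 the 4 pairs of the same number had 0.0463 to 0.0932. The 12 other pairs there had -0.156 to 0.0471. Whether the replicate number pairs libraries was not tested. With the replicate number as a block 8 genes were called at day 3 (8 without the block), 8 at day 7 (6) and 8 at day 21 (7) against day 0, 8 at day 21 against day 7 (5), and 0 with p7N3 (0). Of all genes the block called 59.8%, 50.1%, 35.5%, 31.9% and 0.05% in these comparisons, against 66.1%, 54.7%, 37.5%, 34.5% and 0.00739% without it. In sub-clusters the block gave 0 of 7 genes tested in Myoc/Angptl7 and 3 of 6 in Hmcn2/Abca8a, where it called 1.43% and 3.73% of all genes. For p7N3 it gave 0 of 8 in C1qtnf3/Scx, 0 of 9 in Gzme/Gzmb and 0 of 8 in Col7a1/Actg2. There it called 0.203%, 0.19% and 0.00948% of all genes. The genes tested in sub-clusters with the block were not the same as in the main fits.

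With each library left out in turn 8 genes were called at day 3 against day 0 throughout and 0 with p7N3 throughout. The number lay between 5 and 7 at day 7 and between 5 and 7 at day 21 against day 0, between 3 and 5 at day 21 against day 7, between 0 and 1 in Myoc/Angptl7 and between 1 and 3 in Hmcn2/Abca8a. Thinning moved 49 of 50 shares of cells by over 1 SD. Dropping the Cd74/H2-Aa, Hdc/S100a8 and Hbb-bt/Hba-a2 sub-clusters (352, 160 and 47 cells) was chosen after seeing the data. The Retnlg/S100a8 sub-cluster, with most stromal-like cells of day 3, was kept, so that day 3 was not examined without it. This drop ended the call of Wnt5a at day 21 against day 0 (-0.43, adjusted p = 0.051) and of Dkk3 at day 21 against day 7 (0.44, adjusted p = 0.053). Depth limits Wif1 and Frzb most, with at most 7 UMIs in a library of day 0.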

Other observations

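Plasmacytoid dendritic cell-like cells, 242 cells led by Siglech and Ccr9, had 200 ± 231 CPM of Sfrp2 and 124 ± 168 CPM of Sfrp1 (SD, n = 9 libraries with at least 10 such cells). These were the highest means of both genes among the immune cells, above T/NK lymphocyte-like cells with 38.6 ± 78.3 CPM of Sfrp2 (n = 13), and the 9 libraries ran from 0 to 614 CPM for Sfrp2 and from 0 to 543 for Sfrp1. Doublets had not been removed, and their part in these values was not tested.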
